A study of Mus musculus with 30 samples.

Results

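Gene expression was compared between the hippocampus of COX-2 heterozygous (HET) mice, which carry 1 intact copy of the cyclooxygenase-2 gene, and that of COX-2 null (KO) mice, which carry none. The comparison rests on 6 of the 30 arrays of the series, 3 HET and 3 KO, and on all 16896 cDNA probes of the membrane. Names were taken from the 9663 probes that are annotated with 1 gene symbol, which cover 7151 genes. A further 436 probes carry several symbols and 6797 carry none.

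Cyclooxygenases convert arachidonic acid, released from membrane phospholipids by phospholipases, into prostaglandin H2, from which prostaglandins and thromboxane are made. COX-2, encoded by Ptgs2, is present in excitatory neurons of the hippocampus under basal conditions and is induced further by synaptic activity, whereas in most other tissues it appears mainly during inflammation. Its main neuronal product, prostaglandin E2, acts through G protein-coupled receptors, some of which raise cyclic AMP.

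All mice were 12 weeks old, and the gene is disrupted in every tissue and throughout life. The KO and WT mice had a mixed background of C57BL/6 and a second inbred strain, and the KO mice came from null males mated with heterozygous females. The wild-type (WT) mice of the same line, whose 3 hippocampus arrays are given beside the HET and KO values, came from wild-type matings within the colony. How the HET mice were bred or used is not given in the sources used here, and it is not settled what the 3 arrays of a group are: the methods speak of 3 mice in each KO and WT group and also of triplicate hybridisation of a sample, and do not mention HET. The p-values therefore measure the spread between arrays. No probe of Ptgs2 or Ptgs1 was found by symbol, so the genotypes could not be checked on the deleted gene.

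Each value is a Z score, the natural log intensity of a spot expressed in SDs from a mean, so a difference of 1 equals 1 SD and cannot be read as a ratio of RNA amounts. The methods give mean and SD as those of an array, while the values averaged 0, with an SD of 1, within the upper and within the lower part of the table on all 30 arrays. Arrays of the same group correlated with r between 0.991 and 0.993 for HET and between 0.982 and 0.989 for KO, and HET correlated with KO arrays between 0.979 and 0.990. A probe was taken as expressed when its mean Z over the 6 arrays was above 0, which left 8048 probes, 4549 of them with 1 symbol from 3879 genes. Few cell type markers were expressed. Calb1 and Plk5 of dentate granule cells, Pou3f1 of CA pyramidal cells, and Snap25, Uchl1, Nefl and Tubb3 of neurons were among them, no interneuron marker had a probe, and 0 of the 6 marker probes of cortical layers and of thalamus or other neighbouring regions were expressed. The choroid plexus marker Ttr, a thyroid hormone carrier, differed widely within groups and was lowest in the last replicate of each. Its Z was 0.833, 1.90 and 0.246 in HET, 2.01, 2.17 and 0.247 in KO and 2.36, 1.97 and 0.402 in WT. The groups therefore overlapped for Ttr, and its part in other results was not tested.

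The clearest differences between HET and KO hippocampus were in the direction of lower values in HET. Senp6, Sfxn2, Dcakd, Agpat1, Shroom2 and Pdlim5 were lower in HET by 0.301 to 0.488 in Z, while Ctnnd1 and Srsf10 were the named genes with the largest increases, of 0.335 and 0.348. The probes of Senp6, Sfxn2, Shroom2 and Pdlim5 come from table rows where HET minus KO was low in general, as described below. By limma, with the spread estimated over 15 hippocampus arrays and Benjamini-Hochberg adjustment over the 8048 expressed probes, 60 probes (0.746%) passed an adjusted p of 0.05. Of these, 49 (0.609%) were lower and 11 (0.137%) higher in HET, and 27 carried 1 symbol, 23 lower and 4 higher. The unadjusted p was under 0.05 for 1344 probes. The split by direction varied with the fit, with 75 higher and 105 lower when all 30 arrays entered, 50 and 99 with an intensity trend, and 21 and 38 without KO replicate 3. The count rested on single arrays: limma gave 13, 16 and 19 calls without HET replicate 1, 2 or 3 and 26 and 32 without KO replicate 1 or 2, and with only the 6 HET and KO arrays in the fit it gave 0, with 1149 probes at an unadjusted p under 0.05. Calls of 9 named genes, Pou3f1, Eif4a1, Tcp1, Tmod3, Asap2, Norad, Tdrd9, Rps14 and Ppp5c, passed in 0 of the 6 fits that left out 1 HET or KO array.

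A second rule, adapted from the study, asked for a mean Z above 0, a Z test P under 0.05 and a z ratio beyond 1.5. The methods describe the z ratio as scaled by the SD of an array, which is 1 after standardisation. In that form 0 probes met the rule here, so HET minus KO in mean Z was scaled instead by the SD that such differences have over the whole table, which was 0.113. On this scale 404 probes (5.02%) were called, 178 (2.21%) higher and 226 (2.81%) lower in HET. With 1 symbol there were 84 probes that rose and 125 that fell, from 207 genes. All 60 probes that passed limma also met this rule. The absolute difference had a median of 0.30 among the limma calls, 0.206 among the z ratio calls and 0.0578 among all expressed probes, and it reached at most 0.509. Values of HET and KO did not overlap in 1968 expressed probes (24.5%), 1053 of them higher in HET and 915 lower, and in 378 of the 404 probes called by z ratio.

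**Figure D1:**
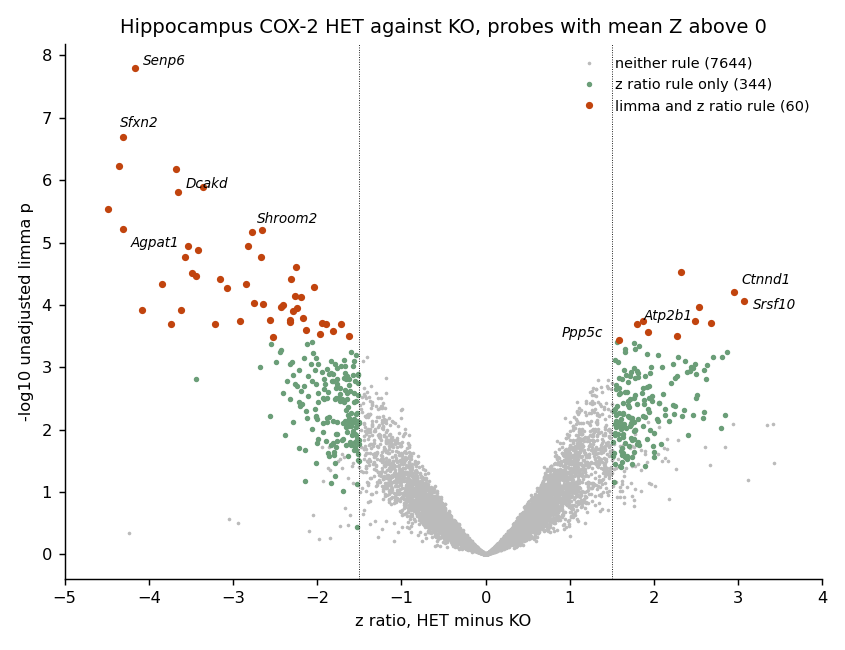
Each point is an expressed probe, placed by its z ratio for HET minus KO (horizontal) and by the negative log10 of its unadjusted limma p (vertical); dotted lines mark z ratios of 1.5 in either direction. Of the 60 probes that passed limma, 49 lie on the left, lower in HET, and Senp6 has the smallest p.

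The difference followed the position of a probe in the table, and this bears on every count above. HET minus KO was low at both ends of the upper part: the top and bottom 384 rows of that part held 56 z ratio calls lower in HET, 0 higher, and 16 of the 49 limma decreases among 211 expressed probes. The median difference of all probes was -0.0736 in the top and -0.109 in the bottom rows. Named limma decreases from the top rows were Senp6, Shroom2, Pou3f1 and Dok4. Those from the bottom rows were Pdlim5, Rbm27, Tmod3, Sfxn2, Asap2 and Norad. Along the rows the difference also rose and fell with a period of 528 rows, at which its autocorrelation was 0.341 in the upper and 0.252 in the lower part. No layout of the membrane was used. Period and line length were taken as the lags, within set ranges, at which the autocorrelation of HET minus KO in the upper part was highest. The upper-part value at the period is therefore a chosen maximum, and the grid came from the contrast that it later corrected. From these lags a grid was inferred in which a period holds 24 lines of 22 spots and repeats 16 times in each part, and all grid-corrected values rest on that inference. A probe's difference correlated with the median difference of its neighbours in this grid, pooled over the 16 repeats, at r = 0.398 in the upper and r = 0.337 in the lower part. That median ranged from -0.156 to 0.112 in Z. The pattern was uneven between arrays, taken as each array's deviation from the mean of the hippocampus arrays. In the upper part its grid medians had an SD of 0.0911 in KO replicate 3. The SD was 0.0451 and 0.0347 in KO replicates 1 and 2, and 0.0235 to 0.0353 in HET. In the lower part it was 0.0303 in KO replicate 3. Of the 404 z ratio calls, 298 were in the upper part, which held 3903 of the expressed probes.

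With the grid pattern subtracted from each array, a step added after the data had been seen, limma gave 68 calls, 59 lower and 9 higher in HET, and 41 of the 60 original calls were kept. The z ratio rule then gave 345 calls and kept 225. Of the 27 named limma calls, 19 were kept, and those lost were Slc12a7, Ccdc50, Kif5b, Asap2, Norad, Atp2b1, Rps14 and Ppp5c. Among probes with 1 symbol, 15 others passed limma after this step. The grid pattern is pooled over its repeats, so this step was not built to remove a slow trend along the rows, and none was measured after it. A running median over 100 probes on either side was subtracted separately, from values without the grid correction. Taken from each array, it kept 26 of the 60 limma calls and 215 of the 404 z ratio calls. Of the 27 named limma calls it kept only Senp6, Sfxn2, Dcakd, Agpat1, Nxf1, Eif4a1, Tdrd9 and Ppp5c. Taken from the differences, the running median kept 201 z ratio calls.

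**Figure D2:**
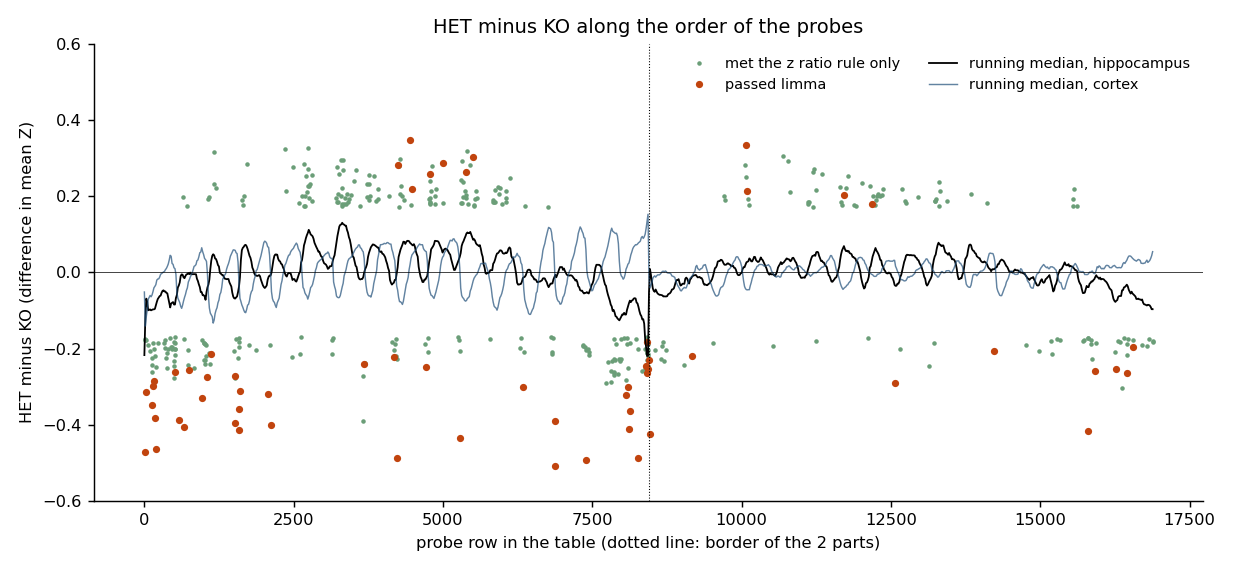
HET minus KO differences of called probes (points) and the running median of all probes (lines, hippocampus black and cortex blue) along the row order of the table; the vertical axis is the difference in mean Z. The hippocampus line falls at the ends of each part and oscillates, and the cortex line oscillates in the opposite direction in the upper part.

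Senp6, a protease that removes SUMO chains from proteins, had the smallest limma p. Its Z was 2.12, 2.13 and 2.16 in the 3 HET arrays, 2.68, 2.57 and 2.58 in KO, and 2.50, 2.59 and 2.57 in WT. All HET values lay below all KO and all WT values. The difference was -0.472 ± 0.042 (SE, 3 against 3 arrays, limma adjusted p = 0.00013) and -0.540 after the grid correction (limma adjusted p = 0.000105). With the running median taken from each array it passed less clearly (limma adjusted p = 0.022). With the running median taken from the differences, the z ratio moved from -4.16 to -3.44. A further expressed probe of Senp6 differed by -0.139 and another by -0.0457, and neither passed either rule.

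Sfxn2, Agpat1 and Dcakd had large limma decreases. Sfxn2, a sideroflexin of the mitochondrial inner membrane, had Z values of 0.0931, 0.148 and 0.0999 in HET against 0.491, 0.645 and 0.669 in KO and 0.502, 0.489 and 0.619 in WT, a difference of -0.488 ± 0.053 (limma adjusted p = 0.0008). Agpat1, which acylates lysophosphatidic acid to phosphatidic acid, stood at 1.75, 1.91 and 1.85 in HET, 2.48, 2.34 and 2.16 in KO and 2.16, 2.23 and 2.23 in WT, and differed by -0.488 ± 0.071 (limma adjusted p = 0.0055). Dcakd, a protein with a dephospho-CoA kinase domain, stood at 1.88, 1.87 and 1.85 in HET, 2.37, 2.27 and 2.20 in KO and 2.18, 2.27 and 2.27 in WT, and differed by -0.414 ± 0.053 (limma adjusted p = 0.0021). In each of these genes the HET arrays were below the other 6, and each kept its limma call under both position corrections and in all 6 fits that left out 1 HET or KO array.

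Shroom2, Pdlim5, Tmod3, Kif5b and Diaph1, all limma decreases, are described together as genes of actin or motor proteins, a grouping made after the values had been seen. Shroom2, an actin-binding regulator of cell shape, stood at 1.81, 1.75 and 1.74 in HET, 2.13, 2.06 and 2.06 in KO and 1.91, 1.99 and 2.02 in WT. Pdlim5, a PDZ and LIM domain scaffold on actin, stood at 1.76, 1.82 and 1.84 in HET, 2.16, 2.11 and 2.05 in KO and 2.12, 2.19 and 2.15 in WT. Both decreases, of -0.315 and -0.301, passed limma at an adjusted p of 0.0055 and in all 6 fits that left out 1 array, though not after the running median was removed. The other probe of Pdlim5 was also lower in HET, by -0.171, and met the z ratio rule, though after neither position correction. Tmod3, which caps the slow-growing ends of actin filaments, was lower by -0.364 ± 0.074 (limma adjusted p = 0.032), and its 2 other probes, both below a mean Z of 0, differed by -0.00468 and -0.0270. Kif5b, a kinesin heavy chain for axonal transport, was lower by -0.275 and Diaph1, a formin that nucleates actin, by -0.195, each with 1 other probe that met no rule. Tmod3, Kif5b and Diaph1 did not pass limma after the running median was removed either.

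Some limma calls in both directions were genes that act on RNA, a group formed after the values had been seen. Nxf1, the main export receptor for mRNA, stood at 2.33, 2.43 and 2.31 in HET, 2.89, 2.70 and 2.66 in KO and 2.52, 2.69 and 2.57 in WT, and its difference of -0.390 ± 0.066 (limma adjusted p = 0.014) passed under both position corrections. Eif4a1, the helicase of the cap-binding complex, stood at 0.551, 0.473 and 0.537 in HET against 0.745, 0.793 and 0.804 in KO and 0.716, 0.767 and 0.732 in WT, and also passed under both. Its 2 other expressed probes differed by 0.121 and 0.0365 and met no rule, so the probes of this gene did not move together. Tdrd9, a helicase of the piRNA pathway, was lower by -0.424 and Rbm27, an RNA-binding protein, by -0.411. The ribosomal protein gene Rps14 was lower by -0.291, the U2 snRNP gene Sf3a2 fell in the same test, and Norad, a long non-coding RNA that binds Pumilio proteins, had a limma decrease of -0.263 in 1 probe and met the z ratio rule with -0.214 in its other. After the running median Tdrd9 kept its limma call, and Rbm27, Rps14, Sf3a2 and Norad did not.

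Among the remaining limma decreases were membrane transport and signalling genes. Bsg, which escorts monocarboxylate transporters to the cell surface, stood at 1.24, 1.26 and 1.26 in HET, 1.66, 1.55 and 1.52 in KO and 1.554, 1.627 and 1.496 in WT. Slc12a7, a potassium-chloride cotransporter, stood at 0.284, 0.304 and 0.398 in HET, 0.612, 0.580 and 0.579 in KO and 0.509, 0.484 and 0.462 in WT. HET arrays were the lowest for both, but the difference of Slc12a7 shrank from -0.262 to -0.131 after the grid correction (limma adjusted p = 0.166), and its other probe differed by 0.0777. Pou3f1, a POU transcription factor of CA pyramidal neurons, was lower by -0.30 and was the only expressed marker of those cells, while the chaperonin subunit gene Tcp1 was lower by -0.330 with 2 other probes at 0.00300 and -0.00797. The adaptor Dok4, the Arf GTPase activator Asap2 and Ccdc50 complete the 23. Together with Norad and Sf3a2 these last were named after their values had been seen. Bsg, Slc12a7, Pou3f1, Tcp1, Dok4, Asap2 and Ccdc50 did not pass limma after the running median was removed.

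Increases in HET were fewer by limma. Ctnnd1, encoding p120-catenin at cadherin junctions, stood at 0.568, 0.597 and 0.535 in HET, 0.0609, 0.304 and 0.329 in KO and 0.112, 0.0587 and 0.178 in WT, a difference of 0.335 ± 0.060 (limma adjusted p = 0.019). Srsf10, a splicing regulator, stood at 0.563, 0.545 and 0.724 in HET, 0.203, 0.248 and 0.338 in KO and 0.234, 0.198 and 0.317 in WT, a difference of 0.348 ± 0.065 (limma adjusted p = 0.024). For both genes all HET values were above the other 6 arrays, and both passed after the grid correction but not after the running median. Their other probes did not follow: for Ctnnd1 they differed by 0.0767 and -0.0319, and for the 4 other probes of Srsf10 by 0.0806 to -0.163. Atp2b1, a calcium pump of the plasma membrane, stood at 0.938, 0.904 and 0.923 in HET, 0.653, 0.728 and 0.773 in KO and 0.625, 0.702 and 0.642 in WT, and was higher by 0.204. It did not pass limma after either position correction. Another probe of Atp2b1, barely above a mean Z of 0, was lower in HET by -0.0941 without overlap, and met no rule. A further probe, at a mean Z of -3.25, differed by -0.751 with overlapping arrays. Ppp5c, a serine/threonine phosphatase, was higher by 0.180, with HET at 0.489, 0.436 and 0.458, KO at 0.321, 0.258 and 0.263, and WT at 0.383, 0.439 and 0.480, so that its WT and HET values overlapped. None of the 11 increases was called by limma when HET replicate 1, 2 or 3 was left out.

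**Figure D3:**
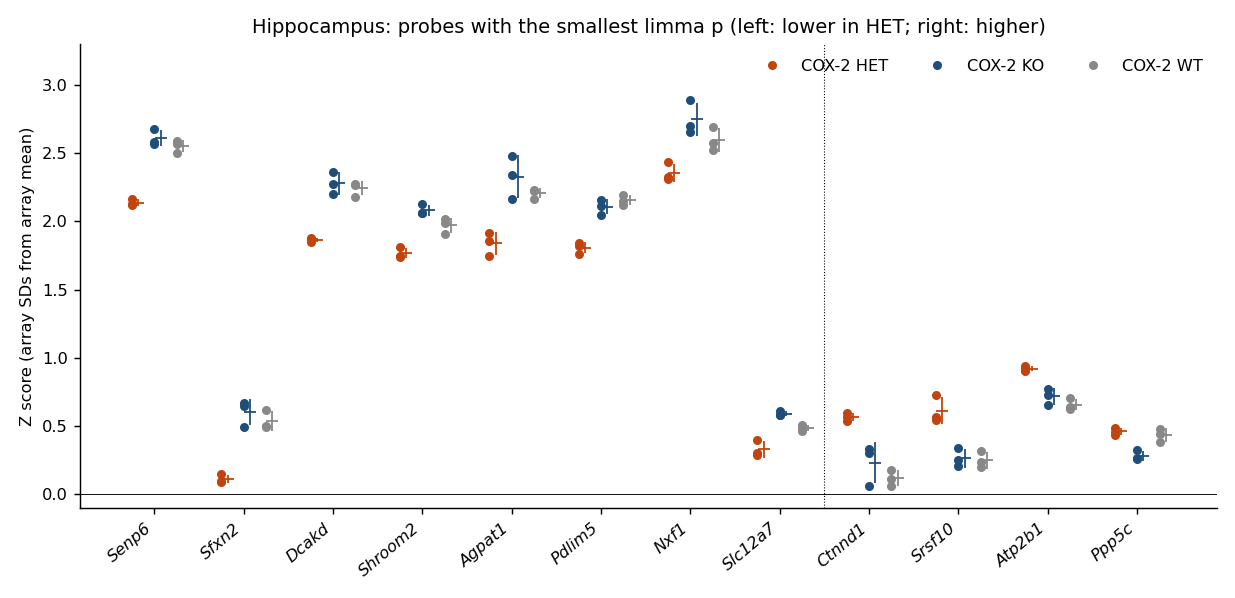
Z score (vertical axis, in SDs of an array) of every HET, KO and WT hippocampus array for the 8 named probes with the smallest limma p that were lower in HET (left of the dotted line) and the 4 that were higher; short bars are group means with SD, n = 3. HET points stand apart from KO in all 12, and WT points lie near KO in most, with Ppp5c an exception.

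Most of the largest upward z ratios came from genes that did not pass limma. Mtor, the growth-regulating kinase, stood at 0.523, 0.535 and 0.485 in HET and 0.0484, 0.30 and 0.276 in KO, a z ratio of 2.70. Maoa, which degrades serotonin and noradrenaline, stood at 0.463, 0.547 and 0.443 in HET and 0.202, 0.0690 and 0.349 in KO, a z ratio of 2.44 (limma adjusted p = 0.076), and passed limma under both position corrections. Crtc1, a coactivator of CREB, had a z ratio of 2.29 and a limma adjusted p of 0.067, and 0.0499 after the grid correction. The kinases Map4k5, Wnk1 and Csnk1g1, the deubiquitinase Usp29, the lysosomal trafficking gene Lyst, the placental prolactin relative Prl2a1, the scaffold Caskin2, the cell cycle phosphatase Cdc25c, the chromatin protein Nucks1 and the mitochondrial gene Rtn4ip1 had z ratios between 2.27 and 2.85. Prl2a1, Map4k5, Usp29 and Caskin2 no longer met the rule after the grid correction, and Usp29, Wnk1 and Rtn4ip1 did not after the running median. With 1 array left out, the call of Usp29 was kept in 1 and that of Prl2a1 in 2 of 6 sets. In several of them KO replicate 1 was far below the other KO arrays, as in Usp29 with 0.801 against 1.21 and 1.20. Mapk13, a p38 kinase, was the only one of the 15 largest named decreases that did not pass limma, with a z ratio of -2.68 (limma adjusted p = 0.076), and it passed after the grid correction (-0.342, limma adjusted p = 0.0417).

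The WT arrays lay nearer to KO than to HET for most decreases, and less often so for increases. In 56 of the 60 limma calls all 3 HET values lay outside the range of the 3 WT arrays in the direction of the difference, and in 17 all 3 KO values did so on the opposite side. For the z ratio calls these numbers were 268 and 107 of 404, and over all expressed probes 2310 and 1010 of 8048. The WT mean was closer to KO than to HET in 48 of the 60 limma calls and in 264 of the 404 z ratio calls, against 4418 of 8048 expressed probes. By direction, this held for 41 of 49 limma decreases and 7 of 11 limma increases. Among z ratio calls it held for 162 of 226 decreases and 102 of 178 increases. These are descriptions, since the WT arrays served only in the estimate of the spread.

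Probes of the same gene agreed little. Of 433 genes with exactly 2 expressed probes, both differences had the same sign in 222, and they correlated with r = 0.098 across genes, which are not independent replicates. Of 84 other expressed probes of genes called by z ratio, 43 had the sign of the called probe. Before position correction only Pdlim5 and Norad had 2 called probes, in each case both lower in HET, and no gene had probes called in both directions. After the grid correction a probe of Srsf10 was called higher (z ratio 2.9) and another lower (-1.77). After the running median a probe of Cct4 was called higher (1.85) and another lower (-1.63).

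Genes of the arachidonic acid and eicosanoid pathway, to which the deleted enzyme belongs, gave 0 z ratio calls among 14 expressed probes, against 5.02% of all expressed probes. Alox12, an arachidonate lipoxygenase, had the largest difference, with Z of 0.613, 0.768 and 0.913 in HET, 0.137, 0.526 and 0.744 in KO and 0.205, 0.273 and 0.255 in WT, but HET and KO overlapped and it did not pass the Z test. Ptgis, the prostacyclin synthase, stood at 1.82, 1.86 and 1.89 in HET and 1.76, 1.75 and 1.78 in KO, without overlap but with a z ratio of 0.845. The differences of the prostaglandin E synthases Ptges (0.0286) and Ptges3 (0.0273), of the prostaglandin E2 receptor Ptger2 (-0.0514), of the prostaglandin transporter Slco2a1 (0.0444) and of the phospholipases Pla2g4a (0.0286) and Pla2g6 (-0.0984) met no rule. The median of the list was 0.0279 beside 0.0108 for all expressed probes.

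In the list of actin, tubulin and motor proteins, 5 of 82 expressed probes were called by z ratio, all lower in HET, and 3 of these by limma. They were Tmod3, Kif5b and Diaph1 with the limma calls, Tubb3, the neuronal beta-tubulin, with a z ratio of -1.91, and Stmn3, a stathmin that binds tubulin, with -1.52. Tubb3 stood at 1.02, 1.06 and 1.06 in HET and 1.22, 1.22 and 1.35 in KO, and its z ratio was -1.05 after the grid correction, within the limit of the rule. The list had a median of -0.0220, and 32 of its 82 differences were above 0, beside 4408 of 8048 over all expressed probes. Its share of calls, 6.1%, was near the 5.02% of all expressed probes.

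The cytosolic ribosomal proteins had 2 calls among 119 expressed probes, Rps14 and Rps3a1, both lower in HET. Their median was -0.0329, with 42 differences above 0 and 77 below, beside 4408 above and 3640 below over all expressed probes. Oxidative phosphorylation likewise had 2 decreases among 47 probes, in the cytochrome c oxidase subunit genes Cox6a1 and Cox4i1 with z ratios of -1.64 and -1.57, a median of -0.0331 and 15 differences above 0. Of 63 chaperone probes Cct4 was higher and Tcp1, Hspa8 and Dnajb4 were lower. Cct4 and Tcp1 encode subunits of the same chaperonin. The 2 other probes of Cct4 were lower in HET, by -0.157 and -0.0302, without meeting the rule, though the first met it after the running median (-1.63). The Hspa8 call, with a z ratio of -1.89, turned to 0.0532 after the running median was removed, and the 3 other probes of Hspa8 met no rule. The shares called, 1.68% of the ribosomal, 4.26% of the oxidative phosphorylation and 6.35% of the chaperone probes, lay below or near 5.02%.

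Calls in the other lists, to be read beside the 5.02% of all expressed probes, were 0 to 2 a list. Atp2b1 and Crtc1 were higher among 41 probes of cyclic AMP and calcium signalling. Among 11 probes of activity-regulated genes, Gadd45g, a stress-induced regulator of DNA demethylation, was higher with a z ratio of 1.78 (1.32 after the grid correction and 1.13 after the running median, both within the limit), and 1 probe of Tiparp was lower with -2.02, while its other expressed probe differed by 0.0760. The vacuolar proton pump subunits Atp6v1a and Atp6v1b2 were lower among 19 synaptic vesicle and SNARE probes, with z ratios of -1.83 and -1.67, but their 2 other expressed probes had z ratios of -0.494 and -0.301 and met no rule. The proteasome list held 1 increase, Psmc1 (1.86, with its other probe at 1.499 just below the limit), and 1 decrease, Psmb5 (-1.77), in 36 probes. Acads, a fatty acid dehydrogenase of mitochondria, was higher among 25 probes of fatty acid oxidation, and Dnmt3a, a DNA methyltransferase, among 15 of the methionine cycle and one-carbon list. Eif4a1 was the only call among 51 translation factor probes. Of the list members called, Dnmt3a, Cct4 and Psmb5 no longer met the rule after the grid correction, Atp2b1, Acads, Cox4i1, Atp6v1b2 and Diaph1 did not after the running median, and Rps3a1, Hspa8 and Tubb3 did not after either. There were 0 z ratio calls among 26 probes of JAK-STAT, cytokine and NF-kappaB signalling, 6 of glutamate receptors and the postsynapse and 4 of GABA signalling.

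**Figure D4:**
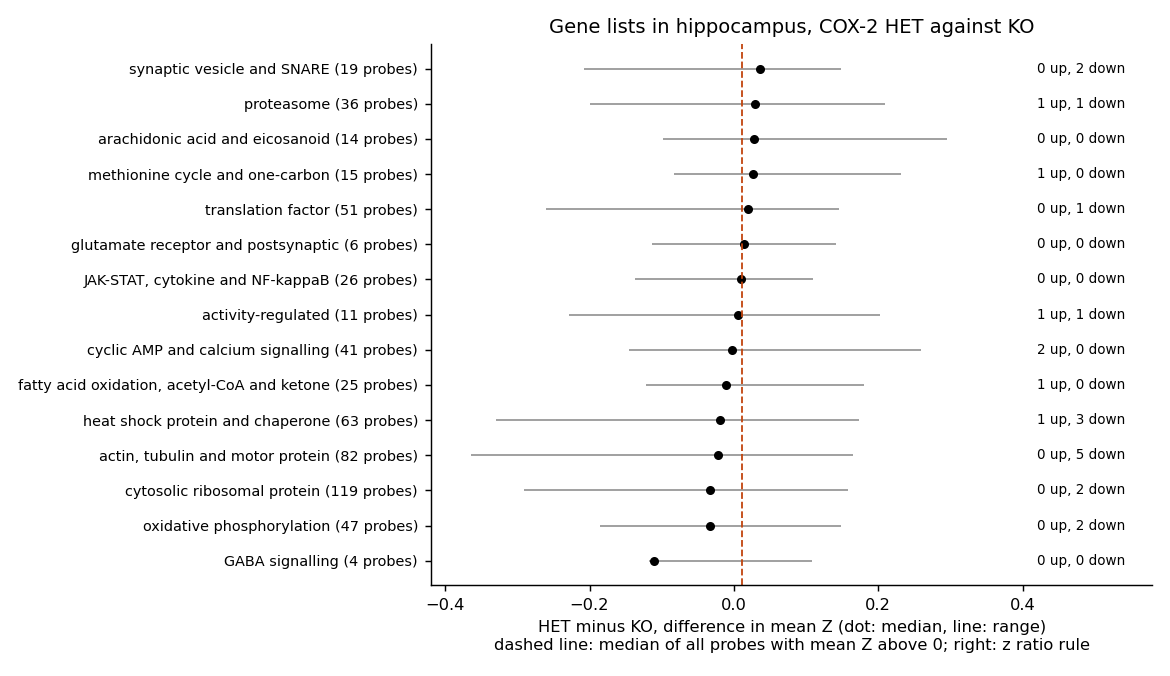
HET minus KO differences in mean Z (horizontal axis) for 15 gene lists: the dot is the median and the line the range over the expressed probes of a list, and the dashed line is the median of all expressed probes, 0.0108. The numbers on the right are z ratio calls in each direction. The actin, tubulin and motor protein list has the most calls, 5 of 82 probes, all lower in HET. Its share of 6.1% is near the 5.02% of all expressed probes, and some shorter lists have higher shares, such as 18.2% of 11 activity-regulated probes.

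Genes on which the study concentrated in the KO mice were looked up whatever their values. None met the rule for HET against KO hippocampus. Acat1, whose mean Z of 0.00317 was just above the filter, did so after the running median, with a z ratio of -1.61. The z ratios of expressed probes were 0.411 for Hsd17b10, a mitochondrial dehydrogenase, 0.645 for Acly, which makes cytosolic acetyl-CoA, -1.01 for Acat1, a thiolase, -0.999 for Slc6a13, a GABA transporter, 0.0659 for Jak1, and 0.916 and -0.406 for Jak2. Probes of Mat2b and Ahcy, both of the methionine cycle, and further probes of Jak1 and Jak2 had a mean Z below 0. No probe of Gabrb1 was found by symbol.

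Markers of other cell types were called singly. Enpp6, an enzyme of newly formed oligodendrocytes and the only expressed marker of that lineage, was higher in HET (0.281, 0.369 and 0.277 against 0.194, 0.134 and -0.0831 in KO), with WT at 0.271, 0.428 and 0.367, but did not meet the rule after the running median. A probe of the haemoglobin gene Hba-a2 was lower in HET with a z ratio of -1.61 (-0.620 after the grid correction and -0.980 after the running median, both within the limit), while the other 15 expressed blood probes met no rule, and Bsg was the only call among 5 endothelial and mural probes. There were 0 calls among 7 astrocyte, 4 microglial, 3 dentate granule cell and 2 choroid plexus probes, lists too short to be read against the 5.02% called of all expressed probes. In tissue RNA fewer cells of a type and less RNA per cell cannot be told apart.

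Genes that lie beside the deleted gene were also examined. Of 47 expressed probes from the 20 nearest genes with an expressed probe on each side of Ptgs2 on chromosome 1, only Snrpe met the z ratio rule, with -1.66, which is 2.13% against 5.02% of all expressed probes. None passed limma, although Snrpe did after the grid correction (-0.251, limma adjusted p = 0.0198). An unadjusted limma p under 0.05 was found for 7 of the 47 (14.9%), against 16.7% of all expressed probes, and the median difference was -0.00374.

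Promoters were searched for the full cyclic AMP response element TGACGTCA, a palindrome that reads the same on both strands, since prostaglandin E2 receptors act on cyclic AMP. RefSeq promoters of 300 bases (GRCm38.p6, 250 before and 50 from the start site) were matched by symbol for 65 of the 84 genes called higher in HET, of which 2 held the element (3.08%), and for 85 genes called lower, of which 3 held it (3.53%). The share was 3.42% of 3161 expressed genes and 1.79% of all 32851 promoters. None of the 17 limma genes with a promoter held it. Usp29, higher in HET with a z ratio of 2.80, was the only gene named above with the element, and its promoter is shown with the element in capitals (chr7:6730333-6730632, plus strand, GRCm38.p6).
Usp29: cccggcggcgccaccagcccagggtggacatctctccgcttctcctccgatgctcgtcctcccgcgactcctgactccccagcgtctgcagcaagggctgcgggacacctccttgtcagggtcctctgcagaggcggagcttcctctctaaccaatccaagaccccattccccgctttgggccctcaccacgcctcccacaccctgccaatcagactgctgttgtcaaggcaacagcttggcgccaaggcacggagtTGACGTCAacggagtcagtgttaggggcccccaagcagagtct

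The same genotypes were measured in cerebral cortex on other arrays, 3 HET and 3 KO. There Sfxn2, lower in HET hippocampus, had a mean of 0.606 ± 0.065 (SD, n = 3) in HET and 0.460 ± 0.067 in KO. Agpat1 stood at 2.43 ± 0.028 in HET and 2.24 ± 0.14 in KO cortex, and Senp6 at 2.58 ± 0.0505 and 2.56 ± 0.0440. Of the 60 hippocampus limma calls, 5 had the same sign in cortex, and 14 after the grid correction, against 41.6% and 49.3% of the probes expressed in both regions. In cortex itself 252 probes (3.15%) met the z ratio rule, 101 higher and 151 lower in HET, and limma called 0 of 7988, with 894 at an unadjusted p under 0.05.

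The difference between the regions was tested in a limma model of 18 COX-2 arrays, as the HET minus KO difference in hippocampus minus that in cortex. It passed for 160 of 8013 probes (2%), of which 72 were relatively higher and 88 relatively lower in hippocampus, and 43 of the 60 hippocampus limma calls were among them. Sfxn2 (-0.634 ± 0.089) and Senp6 (-0.496 ± 0.068) had a limma adjusted p of 0.00507 and Agpat1 (-0.675 ± 0.111) of 0.00966. The sign was opposite in the 2 regions for 157 of the 160. That count and the 43 shared calls follow partly from the selection. The contrast contains the hippocampus difference and is largest when the signs in the 2 regions are opposite. Single arrays moved the count of 160 too, to 57, 34 and 37 without hippocampus HET replicate 1, 2 or 3, to 59 and 19 without cortex HET replicate 2 or 3, and to 46 and 50 without cortex KO replicate 1 or 3.

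Over the 7795 probes expressed in both regions the differences correlated negatively, with r = -0.30, as a description across probes of shared membranes. The grid pattern moved with this. Its medians in hippocampus and cortex correlated with r = -0.812 in the upper and -0.607 in the lower part, and after the grid correction the correlation of differences was -0.156. The regional test then called 56 probes, 29 of them among the original 160, including Sfxn2, Senp6, Agpat1, Shroom2, Dcakd, Eif4a1, Nxf1, Kif5b, Tmod3, Tdrd9, Bsg, Pdlim5 and Rbm27. All 8 named increases with a regional call before, among them Ctnnd1, Srsf10 and Dnmt3a, lost it, as did the decreases Diaph1 and Rps14. After the running median the outcome differed: Snrpb and Psmc1 kept the regional call, and Tmod3, Bsg, Pdlim5 and Rbm27 lost it along with Diaph1 and Rps14, so 9 of the 15 named decreases and 0 of the 8 increases kept it under both corrections.

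**Figure D5:**
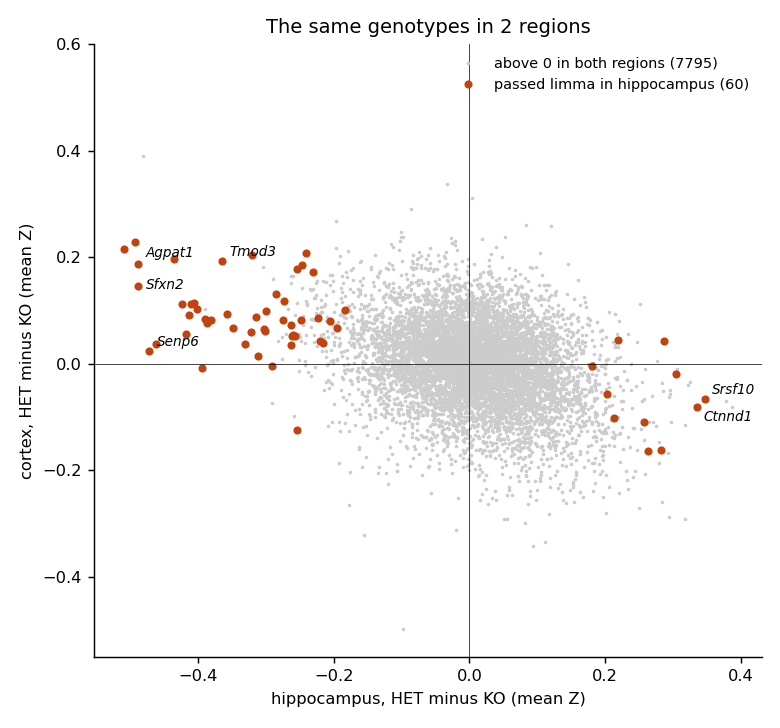
HET minus KO difference in mean Z in hippocampus (horizontal) against cortex (vertical) for the 7795 probes expressed in both regions (grey) and the 60 hippocampus limma calls (orange). Most orange points lie in the upper left, lower in HET in hippocampus and higher in cortex, and 5 of the 60 have the same sign in both regions.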

How the data were processed

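RNA of 10 groups with 3 arrays each was hybridised to custom nylon cDNA membranes. The authors labelled cDNA with radioactive dCTP and read the membranes on a phosphoimager. Spot intensities, quantified in ArrayPro, were log transformed and standardised by the authors, and the deposited score columns hold the resulting Z. No raw intensities were used here, so background and membrane position could not be examined before standardisation. Arrays have no sequencing depth, and the number of arrays, 3 per group, limits the precision: an exact two-sided permutation test of 3 against 3 cannot go below p = 0.1.

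Gene symbols came from the platform annotation, and 9641 probes matched RefSeq by gene identifier. The Z test used the normal distribution with the SDs of both groups. limma 3.58.1 in R 4.3.3 was fitted to the 15 hippocampus arrays with 1 mean for each of the 5 groups, variances were moderated by empirical Bayes, and p-values were adjusted by Benjamini-Hochberg over expressed probes. The regional contrast used 18 COX-2 arrays and the cortex test 9. Scripts were checked on simulated data. Figures were drawn with matplotlib 3.10.9 in Python 3.11.15 (pandas 2.3.3, numpy 2.4.6).

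The genes, lists and tests were chosen with earlier results of these data known. Genes were named as the 15 highest and the 15 lowest called probes by z ratio, those with 1 symbol and no overlap, up to 8 smallest limma p in each direction, called members of the pathway lists, and genes discussed in the study. Other probes of named genes were looked up, but not all are given above. Those left out include other probes of Map4k5 (-0.0745 in HET minus KO), Rps14, Rbm27, Nucks1, Wnk1, Dnmt3a, Rps3a1 and Cox4i1, which met neither rule. Markers are from fixed lists of cell types. The grid correction subtracted from each array the median, over up to 143 neighbouring spots, of its deviation from the mean of the hippocampus (or cortex) arrays. It was chosen after the data had been seen, as were the running median of each array for the z ratio rule and the regional test, each part of the deposited rows alone, and the regional test without single arrays. The other alternatives were median centring, quantile normalization, other filters and thresholds, other sets of arrays, an intensity trend, a replicate block, and leaving out each array.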

Additional observations from a re-analysis of the deposited data

Results flagged for a closer look

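The HET minus KO difference differed between hippocampus and cortex, by the limma regional contrast, for 160 probes. After the grid correction it did so for 56 probes, 29 of them among the 160. Among named probes with a call in hippocampus, the contrast was negative, lower in hippocampus, for Sfxn2 (-0.634), Senp6 (-0.496), Agpat1 (-0.675), Tmod3 (-0.557), Eif4a1 (-0.315), Shroom2 (-0.402), Dcakd (-0.506), Bsg (-0.383), Kif5b (-0.358), Nxf1 (-0.473), Pdlim5 (-0.363), Rbm27 (-0.522), Tdrd9 (-0.537), Diaph1 (-0.263) and Rps14 (-0.288). It was positive for Snrpb (0.295), Dnmt3a (0.434), Caskin2 (0.582), Srsf10 (0.414), Ctnnd1 (0.416), Usp29 (0.610), Psmc1 (0.347) and Map4k5 (0.434). After the grid correction 13 of the 15 negative contrasts kept a limma adjusted p under 0.05, all but Diaph1 and Rps14, and 0 of the 8 positive ones did. After the running median 9 of the negative ones did, without Tmod3, Bsg, Pdlim5 and Rbm27 as well, and 2 of the positive ones, Snrpb and Psmc1. In cortex Tmod3 stood higher in all 3 HET arrays (2.20, 2.26 and 2.26) than in KO (1.94, 2.14 and 2.05), while for Eif4a1 the cortex values of HET (0.859, 0.926 and 0.812) and KO (0.793, 0.840 and 0.798) overlapped.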

How the results depend on the processing

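For HET against KO hippocampus, the 404 z ratio calls became 0 without division by the SD of differences, 1183 without the filter on mean Z, 220 at a mean Z above 0.5, 140 at a z ratio beyond 2 and 106 in the lower part of the table alone, and ranged from 332 to 416 when 1 array was left out. The 60 limma calls became 0 with the 6 HET and KO arrays alone, 180 with all 30 arrays, 149 with an intensity trend, 131 without the filter and 1 in the lower part alone. Leaving out 1 array gave 13 to 59 limma calls: 13, 16 and 19 without HET replicate 1, 2 or 3, and 26 and 32 without KO replicate 1 or 2. Only 10 limma calls and 103 z ratio calls were kept in all 6 such fits, among the named ones Senp6, Sfxn2, Dcakd, Agpat1, Shroom2 and Pdlim5 by limma. Probes without overlap numbered 4039 without the filter, against 1968. The cortex limma count ranged from 0 to 1 when 1 array was left out, with the 1 call made without HET replicate 3. The regional contrast gave 630 calls without the filter, 360 with an intensity trend, 85 after the running median and 56 after the grid correction, and 19 to 198 when 1 of 12 arrays was left out. The z ratio of Hspa8 turned from -1.89 to 0.0532 when the running median was taken from the differences and to 0.0730 when it was taken from each array. The cause of these changes was not tested.

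The main fits had no term for replicate number. Deviations of same-numbered HET and KO arrays correlated with r = 0.103, 0.0647 and 0.166. Each HET array correlated best with the KO array of its own number, and at most with r = 0.0345 with another. Whether same-numbered arrays share a source was not tested. With the replicate block limma gave 76 calls in hippocampus, 56 of them shared with the 60, 0 in cortex, and 299 in the regional contrast against 160.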
